A study of Mus musculus with 3 samples.

Results

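Photoreceptor precursors of the newborn mouse retina were examined as the cells that the authors annotated as photoreceptors at postnatal day 0 (P0). They numbered 1142 of the 5706 cells of the P0 library, and of the 14611 cells of the 3 libraries of the series. Their raw counts of unique molecular identifiers (UMIs, 1 per captured transcript) were summed for each retina. The study asked whether somatostatin receptor 2 (*Sstr2*) regulates the formation of photoreceptors, and compared wild-type (*Sstr2* +/+), heterozygous (+/-) and knockout (-/-) littermates. The mice came from crosses between heterozygous offspring of C57BL/6NCrl mice with the *Sstr2* allele em1(IMPC)Mbp and CD1 mice, and the labels give the strain of all retinas as C57BL/6 / CD1. Cells of each retina were tagged with a lipid-anchored barcode, pooled, and sequenced as a single MULTI-seq droplet library. There was 1 wild-type retina, with 224 photoreceptors, and 2 heterozygous retinas (heterozygous 1 and 2), with 252 and 242. The 2 retinas labelled knockout (knockout 1 and 2) had 178 and 246. The sources do not say how many animals stood behind a barcode, so p-values measure only the spread between these 5 samples, which may be technical in part, and with a single wild-type retina no spread could be measured for that genotype.

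The photoreceptors of the wild-type retina held 1459079 UMIs in all, those of heterozygous 1 and 2 held 2021426 and 1882501, and those of knockout 1 and 2 held 1054856 and 1386540. The median photoreceptor held 4534.5 UMIs, fewer than the median progenitor (8759 UMIs), neurogenic progenitor (6775 UMIs) or amacrine cell (7332 UMIs) of the same library. Levels are given as CPM, the UMIs of a gene per 1000000 UMIs of the summed photoreceptors of a retina. A summed level cannot tell more cells with an RNA from more RNA per cell. Of the 5 retinas, heterozygous 1 and knockout 2 held *Xist*, the RNA that silences an X chromosome in female cells, at 2076.3 and 2092.3 CPM, against at most 4.80 CPM in the other 3, so each genotype with a pair of retinas had 1 of each sex. The doublet caller Scrublet marked 7 of the 5706 P0 cells (0.123%) and 0 photoreceptors, which is too few to count as a working call, and no cell was removed as a doublet. Of the P0 barcodes, 7 also occurred in the P14 library and 9 in the explant library, each time including 1 photoreceptor.

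Rods and cones share a postmitotic precursor that leaves the cell cycle under the homeodomain factor *Otx2*. *Otx2* switches on *Crx*, the homeodomain factor of photoreceptor maturation, and *Prdm1*, a repressor that keeps *Otx2*-positive cells from becoming bipolar cells. The basic leucine zipper factor *Nrl* and its target *Nr2e3* then direct rod genes and repress cone genes, whereas the thyroid hormone receptor *Thrb* and the retinoid receptor *Rxrg* set the opsin choice of cones. Cones of the mouse are born before birth and rods around it, so that the newborn retina holds both at unequal stages of maturation.

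*Otx2* and *Crx* bind DNA through a core that reads TAATCC. The core or its reverse complement GGATTA was searched on both strands of RefSeq promoters (GRCm38.p6), taken as 250 bases before and 50 bases after a gene's start. Of the 20 genes most particular to P0 photoreceptors, described below by their levels, 15 had an entry in the RefSeq promoter table and 4 of these (26.7%) held the core, against 2199 of all 27025 genes (8.14%). No entry was found for *Rcvrn*, *Gngt2*, *Platr17*, *Pde6g* and *Arhgap31*. The 4 promoters with the core are shown because they belong to a cone transducin subunit, a chaperone of phosphodiesterase, a retinoid carrier and a thioredoxin-like protein of photoreceptors. They are written from 5′ to 3′ along the gene's strand with the core in capitals, and a match in this window is a description of the letters only.
Gnat2: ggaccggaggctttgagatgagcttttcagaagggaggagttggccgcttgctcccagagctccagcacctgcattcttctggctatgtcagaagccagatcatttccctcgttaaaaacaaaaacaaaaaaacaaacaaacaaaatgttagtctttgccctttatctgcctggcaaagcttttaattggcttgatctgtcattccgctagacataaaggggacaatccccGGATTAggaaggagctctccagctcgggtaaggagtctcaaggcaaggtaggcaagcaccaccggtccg
Aipl1: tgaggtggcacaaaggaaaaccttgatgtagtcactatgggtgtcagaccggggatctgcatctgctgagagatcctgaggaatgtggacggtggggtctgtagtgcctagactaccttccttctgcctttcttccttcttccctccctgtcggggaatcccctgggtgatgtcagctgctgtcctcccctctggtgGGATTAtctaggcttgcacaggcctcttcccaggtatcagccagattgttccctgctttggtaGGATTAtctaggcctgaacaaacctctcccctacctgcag
Rbp3: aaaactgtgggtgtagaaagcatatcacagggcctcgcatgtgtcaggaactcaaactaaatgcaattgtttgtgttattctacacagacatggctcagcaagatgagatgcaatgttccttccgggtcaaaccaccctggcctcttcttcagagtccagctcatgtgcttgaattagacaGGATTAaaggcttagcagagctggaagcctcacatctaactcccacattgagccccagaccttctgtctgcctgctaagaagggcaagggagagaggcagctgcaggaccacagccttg
Nxnl2: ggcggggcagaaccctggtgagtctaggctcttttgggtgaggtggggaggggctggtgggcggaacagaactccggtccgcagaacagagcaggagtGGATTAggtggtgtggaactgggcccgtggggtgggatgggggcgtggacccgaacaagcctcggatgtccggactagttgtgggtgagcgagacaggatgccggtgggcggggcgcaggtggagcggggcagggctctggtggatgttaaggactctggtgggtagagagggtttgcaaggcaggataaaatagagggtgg
The *Gnat2* promoter lay at chr3:108092816-108093115 on the plus strand and its core began at base -19 from the start. The *Aipl1* promoter lay at chr11:72037460-72037759 on the minus strand and had cores at -53 and 10. The core of *Rbp3* (chr14:33953753-33954052, plus strand) began at -69 and that of *Nxnl2* (chr13:51170775-51171074, plus strand) at -152.

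The annotated cells carried the 5 markers of photoreceptor precursors in every retina. *Crx* stood at 237.1 CPM in the wild type, at 251.8 and 248.6 CPM in heterozygous 1 and 2, and at 279.7 and 283.4 CPM in knockout 1 and 2. *Otx2* stood at 810.1, 704.5, 838.8, 863.6 and 818.6 CPM in the same order. Both genes were alike in the 5 retinas, with SDs of 20.3 CPM around a mean of 260.1 CPM for *Crx* and of 60.98 CPM around 807.1 CPM for *Otx2*. *Neurod1*, a proneural factor that stays on in photoreceptors, averaged 2384.8 CPM (SD 328.1, n = 5), *Prdm1* 303.3 CPM (SD 52.6, n = 5) and *Nrl* 362.3 CPM (SD 64.3, n = 5). The authors' annotation rests on marker genes, so these levels describe the cells and test nothing.

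Neurogenic progenitors, the last dividing or just exiting cells of the lineage, shared part of this profile. Their mean level was 540.6 CPM for *Otx2*, 957 CPM for *Neurod1* and 139.5 CPM for *Prdm1*, against 38.5 CPM for *Crx* and 8.47 CPM for *Nrl*. *Otx2* and *Neurod1* thus reached across the border between the annotated types, while *Nrl* (362.3 against 8.47 CPM) and *Nr2e3* (590.5 against 8.88 CPM) did not. Primary progenitors held 19.3 CPM of *Otx2* and 3.23 CPM of *Crx*. The 5 markers together summed to between 3441.1 and 4541.5 CPM in photoreceptors, to 1684.1 CPM in neurogenic progenitors, to 387.1 CPM in amacrine cells and to 47.9 CPM in ganglion cells. *Pou4f2*, which defines ganglion cells, was at 0 UMIs in photoreceptors of all 5 retinas.

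**Figure D1:**
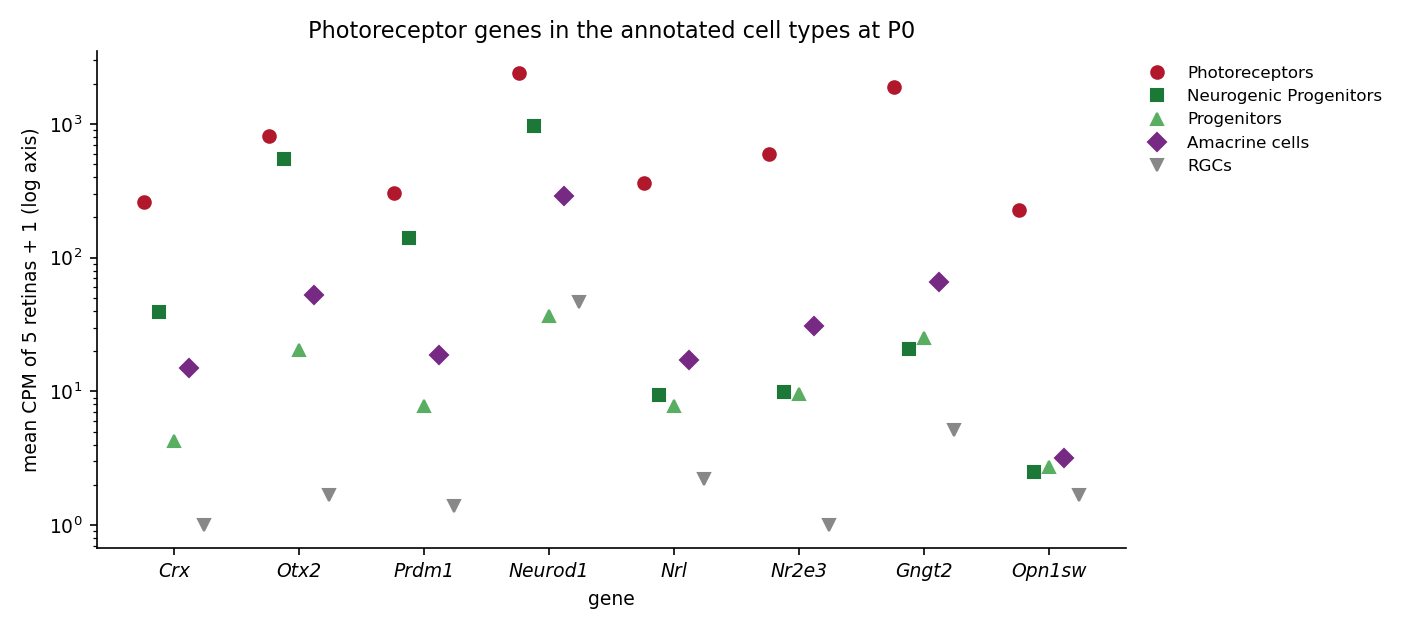
Mean CPM of 5 retinas plus 1, on a log axis, for 8 photoreceptor genes in each annotated P0 cell type, with the cell types told apart by colour and symbol. *Otx2*, *Prdm1* and *Neurod1* were also high in neurogenic progenitors, whereas *Nrl*, *Nr2e3*, *Gngt2* and *Opn1sw* stood far above the other types in photoreceptors.

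Of 3267 genes with at least 50 CPM in photoreceptors, 147 had more than 2 times and 39 more than 10 times the level of any other P0 cell type. The 20 with the highest ratio included genes of phototransduction, which the cells express days before they have outer segments. Recoverin (*Rcvrn*), a calcium sensor of phototransduction, led with a ratio of 109.7 at 67.2 CPM (SD 16.7, n = 5). *Pde6h*, the inhibitory subunit of cone phosphodiesterase, had a ratio of 108.1, *Opn1sw*, the short-wave cone opsin, 103.3, and *Gnat2*, the cone transducin alpha subunit, 76.5. Cone genes therefore held 3 of the first 4 places in a population in which most cells with a subtype marker carried a rod one, as given below. The list also held *Aipl1* (55.2), *Tulp1* (29.6), a protein of ciliary transport, *Gngt2* (29.1), the cone transducin gamma subunit, *Rbp3* (27.4), *Pdc* (26.5), the transducin-binding phosducin, *Pde6g* (24.3), *Rom1* (23.4), a disc-rim protein, and *Nrl* (22.4). The other genes were *Pgc*, *Nrtn*, *Cdhr1*, *Platr17*, *Nxnl2*, *Egflam*, *Arhgap31* and *Htra1*, with ratios from 22.4 to 54.6. Amacrine cells were the type with the next highest level for 19 of the 20, and progenitors for *Nrtn*.

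*Opn1sw* varied widely between retinas, from 112.8 and 178.0 CPM in the heterozygous retinas to 253.6 CPM in the wild-type retina and 249.3 and 338.3 CPM in those labelled knockout. *Pde6h* varied likewise, from 41.6 CPM in heterozygous 1 to 144.2 CPM in knockout 2. *Rbp3* was steadier, at 267.3, 256.7, 267.7, 239.8 and 310.1 CPM.

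Photoreceptors were clustered by themselves and fell into 7 sub-clusters, described here by their leading genes. The largest, of 290 cells (25.4%), was led by *Cnga1*, the rod cyclic nucleotide-gated channel, *Sag*, the rod arrestin, *Rp1*, *Pde6b*, *Nr2e3*, *Pdc* and *Gngt1*. It is called rod-like, since 6 of its 10 leading genes were on the list of rod markers. A sub-cluster of 151 cells (13.2%), led by *Pde6h*, *Thrb*, *Syndig1l*, *Opn1sw*, *Pgc*, *Sall3*, *Gnat2* and *Rcvrn*, is called cone-like, with 5 cone markers among its 10 leading genes. Another 270 cells (23.6%) were led by *Insm2*, *Tmem158*, *Pcp2*, *Slitrk6* and *Fabp7*, a brain fatty acid-binding protein. The fourth, of 188 cells (16.5%), was led by *Atoh7* and held *Gadd45g*, *Dll3* and *Neurod4*, 4 of its 10 leading genes being neurogenic progenitor markers. Since the cells were clustered on these genes, their levels are given without a test.

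Levels changed in a graded way from the *Atoh7* to the *Insm2* and rod-like sub-clusters. *Nrl* stood at 48.2, 549.2 and 1220.1 CPM in these 3 and at 124 CPM in the cone-like cells. *Ldha*, lactate dehydrogenase A, stood at 954.4, 1960.3 and 3306.5 CPM, with 1718.8 CPM in cone-like cells. *Rorb*, a nuclear receptor that acts before *Nrl*, ran the other way, from 3092.6 and 2683.7 to 1398.7 CPM in rod-like and 947.8 CPM in cone-like cells. *Otx2* was highest in the *Insm2* sub-cluster, at 1563.8 CPM against 1027.7 CPM in the *Atoh7*, 905.5 CPM in the rod-like and 588.1 CPM in the cone-like cells, and *Prdm1* had the same order at 536.7, 426.1, 343 and 236.9 CPM. *Fabp7* reached 8943.8 CPM in the *Insm2* sub-cluster against 2549.5 CPM in all other photoreceptors. Among these others it was also high in the *Atoh7* cells, at 6174.6 CPM, against 1801.2 CPM in rod-like and 1604.6 CPM in cone-like cells.

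*Gngt2* did not follow the split between rods and cones. It stood at 4591.5 CPM in cone-like cells but also at 3365.1 CPM in rod-like and 2381.8 CPM in *Insm2* cells, and at 376.9 CPM in the *Atoh7* cells. *Opn1sw* stood at 1206.8 CPM in cone-like cells against 97.6 CPM in all other photoreceptors, and *Gnat2* at 481.3 against 37.6 CPM. Among these others *Opn1sw* was uneven, at 271 CPM in rod-like and 29.0 CPM in *Insm2* cells. *Gnat2* stood there at 22.2 and 25.7 CPM.

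The other 3 sub-clusters, together 243 cells (21.3%), had more than 2 times the UMIs of the median photoreceptor and gave 46.4% of all photoreceptor UMIs. The first (132 cells, median 12085 UMIs) was led by *Ung*, *Mcm3* and *Id3* and held *Hes5*, a Notch effector of progenitors, at 743.6 CPM. The second (83 cells, median 15748 UMIs) was led by *Hist1h1b* and held the mitotic topoisomerase *Top2a* at 1255.5 CPM. The third (28 cells, median 15998 UMIs) was led by *Tfap2b*, with the amacrine factors *Tfap2a*, *Ptf1a* and *Prdm13* among its leading genes. In the *Ung* and *Hist1h1b* sub-clusters *Ccnd1*, the cyclin of retinal progenitors, stood at 2297.4 and 2958.5 CPM, against 50.6 to 102.2 CPM in the *Atoh7*, *Insm2*, rod-like and cone-like sub-clusters. Of their cells, 65.2%, 49.4% and 25% were among the 5% of P0 cells with the highest Scrublet scores, against 0 to 0.690% in the other 4 sub-clusters. Results that rest on these 243 cells are therefore given with and without them, a split chosen after the sub-clusters were seen.

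**Figure D2:**
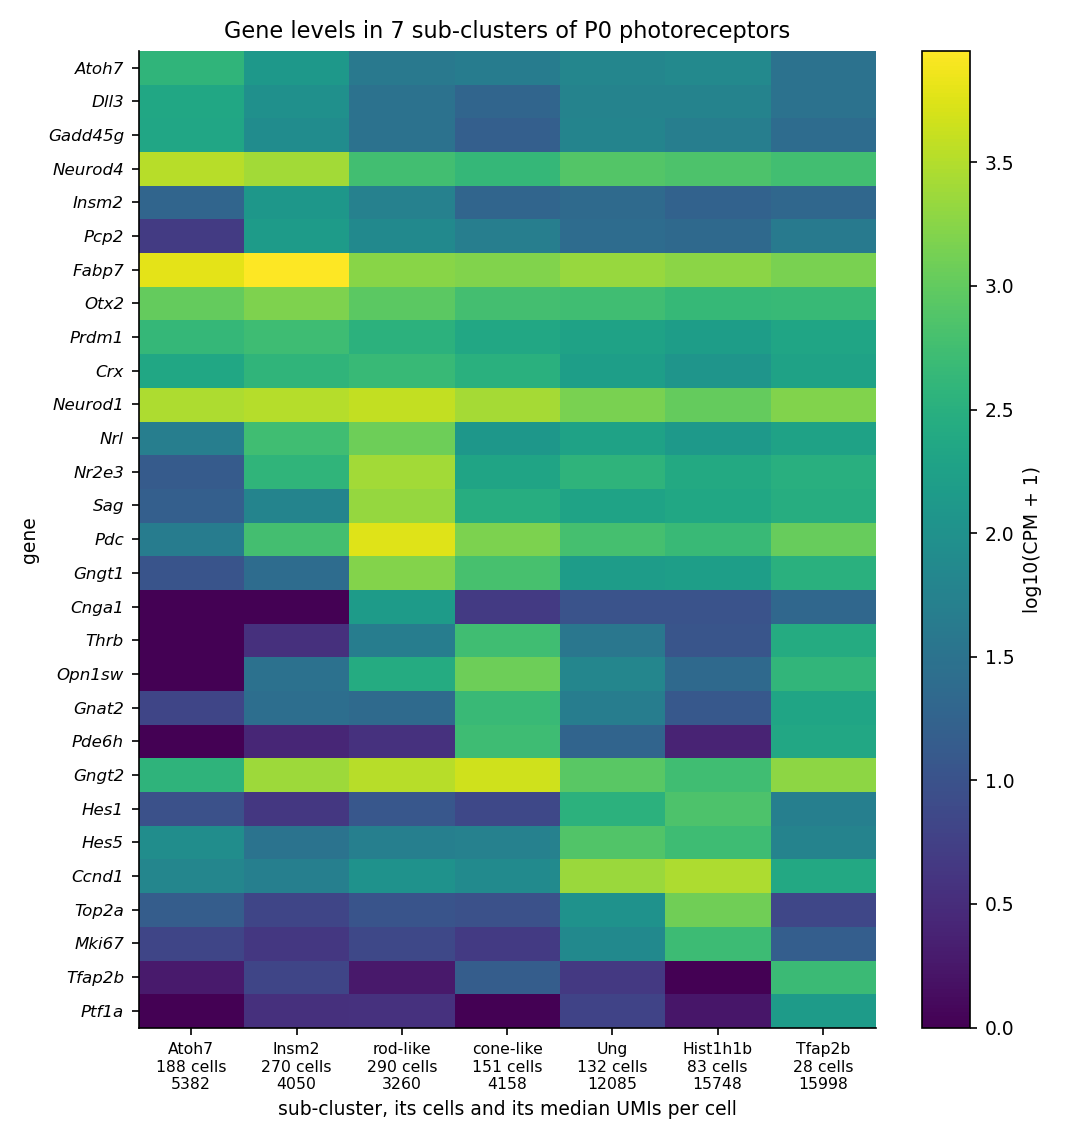
Gene levels as log10(CPM + 1), shown by colour, in the 7 sub-clusters of P0 photoreceptors, named by leading gene or as rod-like and cone-like, with their cells and median UMIs per cell below. Rod genes were brightest in the rod-like and cone genes in the cone-like column, while *Hes1*, *Hes5* and *Ccnd1* were bright in the *Ung* and *Hist1h1b* columns.

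Rod and cone RNA was compared cell by cell after each cell was thinned to 3000 UMIs, which left 1019 cells. Shallower cells were left out, 25 of them from the wild type, 15 and 10 from heterozygous 1 and 2, and 29 and 44 from knockout 1 and 2. Most of these were rod-like cells, of which 195 of 290 remained, against 144 of 151 cone-like and 186 of 188 *Atoh7* cells. Shares over all thinned photoreceptors therefore count fewer rod-like cells than the annotation holds. A UMI of *Nrl* or *Nr2e3* was found in 53.7% of photoreceptors, against 2.59% of equally thinned primary progenitors, a type that should lack both. A UMI of *Thrb*, *Opn1sw*, *Gnat2* or *Pde6h* was found in 28.5%, against 2.05% of primary progenitors. Of all thinned photoreceptors, 38.4% held only the rod pair, 13.2% only the cone genes, 15.3% both and 33.2% neither. Most *Atoh7* cells (88.7%) held neither, whereas 60.6% of *Insm2* cells held the rod pair alone and 10.4% both. In the rod-like sub-cluster 66.7% held the rod pair alone and 30.8% both. In the cone-like sub-cluster 65.3% held the cone genes alone, 34.0% both and 0% the rod pair alone.

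No difference between genotypes in the shares of the rod-like and cone-like sub-clusters passed the exact test over retinas. Rod-like cells made up 22.3% of photoreceptors in the wild-type retina (95% exact interval 17.0% to 28.4%, counting error only), 27.4% and 26.4% in the pair of heterozygous retinas, and 25.3% and 25.2% in the knockout pair. Cone-like cells made up 13.4%, 10.3%, 12.0%, 13.5% and 17.1% in the same order. Knockout retinas were 3.38 percentage points above the mean of the other 3 for cone-like cells (two-sided exact permutation test, p = 0.2) and -0.141 points from it for rod-like cells (exact p = 1). With 2 against 3 retinas this test cannot go below 0.1. The largest differences were in the *Ung* sub-cluster, at 6.74% and 8.94% in the retinas labelled knockout against 12.5%, 13.1% and 15.3%, and in the *Insm2* sub-cluster, at 23.6% and 28.5% against 22.8%, 22.6% and 20.7%. Neither pair of groups overlapped, and both gave the smallest exact p of 0.1 (0.35 after adjustment over 7 sub-clusters). The *Insm2* sub-cluster changed its members under other clustering settings, as given below.

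The 3 sub-clusters of high UMIs together held 19.6% of wild-type, 28.2% and 26.9% of heterozygous and 15.7% and 14.2% of knockout photoreceptors (difference -9.91 points, exact p = 0.2). Among the other 4 sub-clusters alone, *Insm2* cells made up 28.3%, 31.5%, 28.2%, 28% and 33.2%, where the groups overlapped (exact p = 0.7). Rod-like cells there made up 27.8%, 38.1%, 36.2%, 30% and 29.4% (exact p = 0.4).

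**Figure D3:**
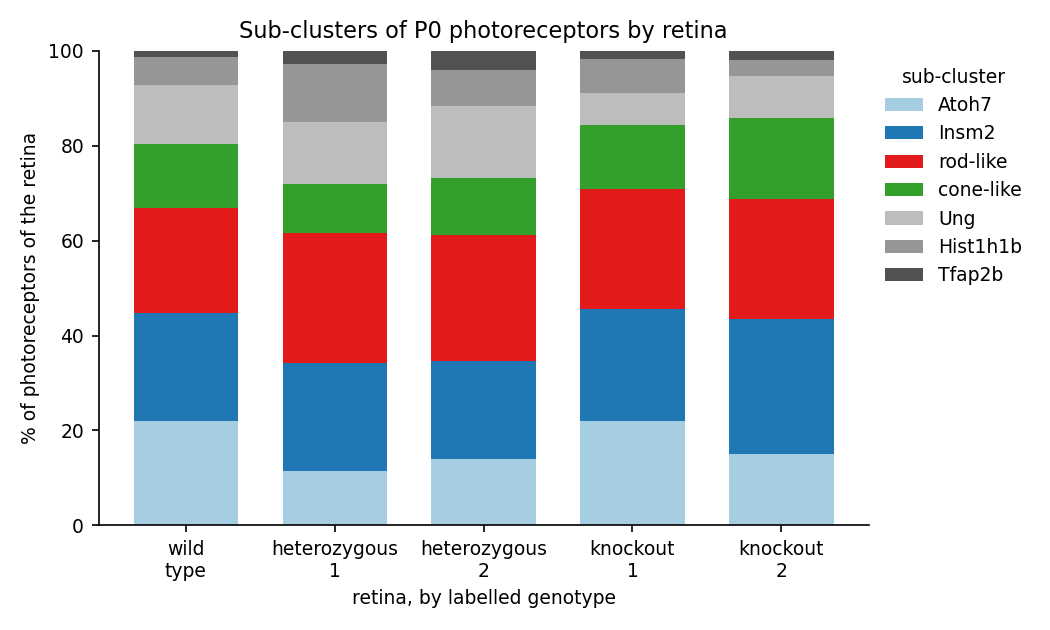
Share of each retina's photoreceptors, in percent, in each of the 7 sub-clusters, as stacked bars with 1 bar for each of the 5 retinas and the 3 sub-clusters of high UMIs in grey. The *Ung* sub-cluster was smaller in both retinas labelled knockout (6.74% and 8.94%) than in the other 3 (12.5% to 15.3%).

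A UMI of any gene of a short rod list, *Nrl*, *Nr2e3*, *Gngt1* and *Pde6g* among them, was sought after thinning. It was found in 62.3% of wild-type photoreceptors, in 69.2% and 68.5% of heterozygous and in 60.4% and 64.9% of knockout photoreceptors (exact permutation test, p = 0.3). The list does not mark rod-like cells alone, since *Gngt1* and *Pde6g* also stood at 640.8 and 777.1 CPM in cone-like cells. A UMI of any of 9 cone genes (*Thrb*, *Rxrg*, *Opn1sw*, *Gnat2*, *Gngt2*, *Gnb3*, *Pde6c*, *Pde6h* and *Arr3*) was found in 83.4%, 90.3%, 84.9%, 88.6% and 95.05% (exact p = 0.3). Most of these shares came with *Gngt2*, which did not follow the split between rods and cones. By itself it was found in 75.4%, 82.7%, 75.9%, 81.9% and 89.6%. Without thinning the shares were 72.3%, 79.8%, 78.1%, 73.0% and 80.1% for rod genes and 94.6%, 97.2%, 95.9%, 93.8% and 99.2% for cone genes. For rod genes the knockout retinas lay -4.05 points from the mean of the other 3 with thinning and -0.17 points without. For cone genes these differences were 5.61 and 0.593 points. In primary progenitors the thinned shares were 4.28% for rod and 7.12% for cone genes. Among 14 single genes tested in this way, 5 were found in a larger share of photoreceptors in both retinas labelled knockout than in any other retina, namely *Crx*, *Otx2*, *Thrb*, *Opn1sw* and *Sstr2*, and none passed. By summed level 10.4% of all genes were likewise higher in both. *Thrb* was at 16.1% and 18.3% against 15.1%, 13.5% and 13.4%, and *Sstr2* at 2.01% and 1.98% against 0.503%, 0.422% and 0% (exact p = 0.1 for each). *Opn1sw* was at 20.1% and 20.8% against 19.1%, 10.5% and 15.9%, and *Crx* at 59.7% and 61.4% against 52.8%, 57.8% and 55.2% (exact p = 0.2 for each). *Otx2* was at 87.9% and 88.6% against 86.9%, 81.0% and 85.8% (exact p = 0.2), and the adjusted p of all 5 was 0.467.

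The RNA of the targeted gene was not lower in the retinas labelled knockout. *Sstr2* was scarce in photoreceptors, with 3 UMIs in the wild type, 3 in heterozygous 1, 7 in heterozygous 2 and 8 in each retina labelled knockout. In neurogenic progenitors, which held 1309 of its UMIs, it stood at 112.1 CPM in the wild type, at 188.6 and 247.8 CPM in heterozygous 1 and 2, and at 294.2 and 374.9 CPM in knockout 1 and 2, the highest of the 5. Which part of the gene the allele removes is not given in the sources used here, so its RNA is no check of the labels. In photoreceptors the 29 UMIs in all did not allow a difference to be detected (edgeR log2 fold change 1.34, SE 0.73, adjusted p = 0.772, knockout against heterozygous).

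Summed counts of 10129 genes were compared between genotypes with edgeR's quasi-likelihood test and Benjamini-Hochberg adjustment, all 5 retinas in 1 fit. Between knockout and heterozygous retinas 6 genes passed an adjusted p of 0.05 (0.0592% of those tested), of which 2 were higher and 4 lower in the retinas labelled knockout. DESeq2 called 7, and 696 genes had an unadjusted edgeR p under 0.05. With a term for the sex of the retina, which left 1 residual degree of freedom, edgeR called 36 (16 higher and 20 lower), the 6 among them. *Gngt2* was the photoreceptor gene among the 6. It stood at 2193.7 and 2890.6 CPM in knockout 1 and 2, at 1362.4 and 1412.0 CPM in heterozygous 1 and 2, and at 1559.2 CPM in the wild type, so that both knockout values lay above the other 3. The edgeR log2 fold change was 0.88 (SE 0.11, adjusted p = 0.00856, n = 2 against 2). *Gngt2* lies at chr11:95837216-95845734 (plus strand, GRCm38), 17.8 Mb before *Sstr2* on the same chromosome. The opposite-strand gene *Abi3* overlaps it and held 22 UMIs in all photoreceptors, against 14009 for *Gngt2*.

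*Gngt2* was higher in knockout than in heterozygous retinas in 6 of the 7 sub-clusters, with no overlap of the pairs, the exception being the *Hist1h1b* sub-cluster. In rod-like cells it stood at 3548.6 and 4977.7 CPM in the retinas labelled knockout against 2697.7 and 2684.5 CPM in heterozygous ones and 3504.9 CPM in the wild type, which lay with the knockout side. In cone-like cells it stood at 6384.3 and 6257.7 CPM against 3564.0 and 3395.5 CPM and 3974.3 CPM in the wild type. Without the 3 sub-clusters of high UMIs the edgeR log2 fold change was 0.64 and no longer passed among 8619 genes (adjusted p = 0.162), while in rod-like cells alone, among 4672 genes, it was 0.66 and passed (edgeR adjusted p = 0.0257). Without heterozygous retina 2 the call was also lost (edgeR log2 fold change 0.91, adjusted p = 0.252). Against the wild-type retina the difference was 0.70 (edgeR SE 0.14, adjusted p = 0.315).

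*Ypel3* was the other gene that rose, at 488.2 and 515.7 CPM against 277.0 and 326.7 CPM (edgeR log2 fold change 0.74, SE 0.11, adjusted p = 0.0354). The wild-type retina, at 446.9 CPM, lay near the retinas labelled knockout, and the call was lost without the 3 sub-clusters, at a log2 fold change of 0.58 (edgeR adjusted p = 0.218), and without heterozygous retina 2 (edgeR adjusted p = 0.110). With 1 retina left out at a time the difference stayed between 0.63 and 0.86. *Gm8797*, a predicted gene whose reads may be shared with near-identical copies, fell most, at 24.7 and 18.0 CPM against 457.1 and 223.1 CPM and 249.5 CPM in the wild type (edgeR log2 fold change -4.01, SE 0.34, adjusted p = 0.000446). It was as low in the other cells of the retinas labelled knockout, at 18.0 and 20.5 CPM against 226.4 to 430.4 CPM in the other 3 retinas, and remained called without the 3 sub-clusters (edgeR adjusted p = 0.000998).

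The other 3 genes that fell did not pass without the sub-clusters of high UMIs. *Hes1*, a Notch effector that keeps progenitors from differentiating, stood at 125.1 and 145.0 CPM in the retinas labelled knockout against 272.6 and 249.7 CPM in heterozygous ones and 180.3 CPM in the wild type (edgeR log2 fold change -0.94, SE 0.11, adjusted p = 0.00856). In the 4 remaining sub-clusters *Hes1* was between 2.26 and 11.9 CPM in every retina, with an edgeR adjusted p of 1. *Ptn*, the growth factor pleiotrophin, fell by 1.08 (edgeR SE 0.15, adjusted p = 0.0266) and *Crym*, a thyroid hormone-binding crystallin, fell by 1.11 on the log2 scale (edgeR SE 0.16, adjusted p = 0.0346). In the 4 remaining sub-clusters neither passed (edgeR adjusted p = 0.965 for each). There the log2 difference was -0.74 for *Ptn* and turned to 0.48 for *Crym*.

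**Figure D4:**
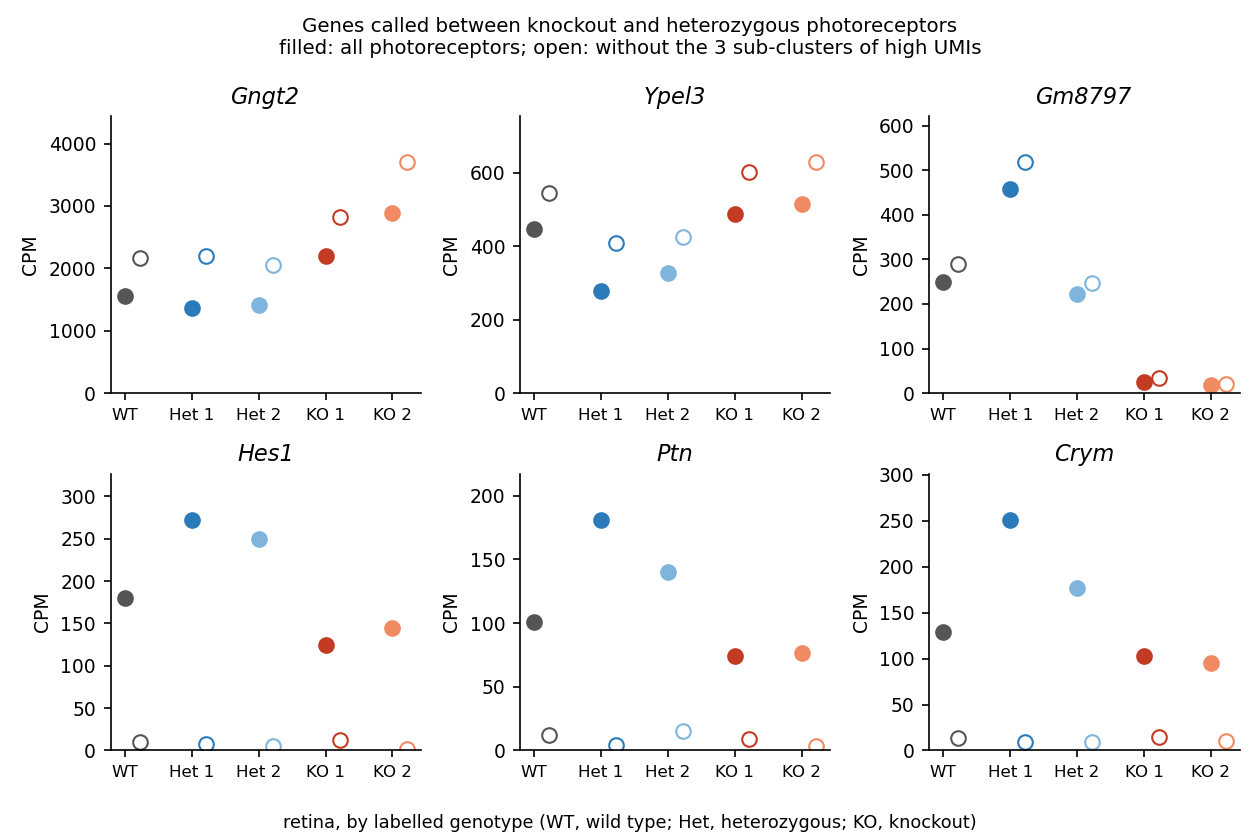
CPM of the 6 genes called between knockout and heterozygous retinas, with 1 panel per gene and 1 column per retina, filled points for all photoreceptors and open points without the 3 sub-clusters of high UMIs. *Gngt2* lay higher and *Gm8797* lower in both retinas labelled knockout with and without these cells, whereas *Hes1*, *Ptn* and *Crym* were near 0 in all 5 retinas without them.

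Larger fold changes did not always pass. *Dusp26*, a dual-specificity phosphatase, stood at 93.9 and 142.1 CPM against 32.7 and 55.8 CPM (edgeR log2 fold change 1.45, SE 0.23, adjusted p = 0.0593), with the wild-type retina at 93.9 CPM. *Opn1sw* had a log2 fold change of 1.04 (edgeR SE 0.18, adjusted p = 0.0797) and *Pde6h* of 1.10 (edgeR SE 0.30, adjusted p = 0.406). In both cone genes the wild-type retina lay at or above knockout 1, and both differences were smaller without the 3 sub-clusters, at 0.46 and 0.68. The difference in *Pde6h* was 0.27 without knockout retina 2, since knockout 1 (57.8 CPM) lay close to heterozygous 2 (55.8 CPM). With a term for sex in the fit, which left 1 residual degree of freedom, *Dusp26* and *Opn1sw* passed (edgeR adjusted p = 5.01e-05 and 8.36e-05). *Mfap4* had 0.93 (0.79 without the 3 sub-clusters), and on the other side *Irx5* had -1.20, *Gas1* -1.19 and *Dbi* -1.09 (edgeR adjusted p from 0.0797 to 0.249). Without the 3 sub-clusters *Gas1* had -0.40 and *Dbi* -0.10, while *Irx5*, at 1.11 to 6.09 CPM there, was too low to be tested. *Irx5* had -0.73 without knockout retina 2 and *Dbi* -0.65 without heterozygous retina 1.

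The factors that specify photoreceptors did not pass in any comparison between 2 genotypes. *Crx* differed between knockout and heterozygous retinas by 0.18 (log2, SE 0.10), *Otx2* by 0.14 (SE 0.11), *Prdm1* by 0.24 (SE 0.13), *Neurod1* by 0.32 (SE 0.08), *Nrl* by 0.28 (SE 0.15) and *Nr2e3* by 0.08 (SE 0.10), with edgeR adjusted p from 0.349 to 0.913. *Crx* was nevertheless higher in both retinas labelled knockout than in the other 3, as were 1053 of the 10129 genes (10.4%), while 1165 (11.5%) were lower in both. Without the 3 sub-clusters *Crx* overlapped, at 358.7 and 347.4 CPM in knockout against 296, 406.3 and 357.9 CPM in the other retinas, and its difference turned to -0.10. The differences in *Neurod1* and *Nrl* were then 0.08 each, those in *Otx2* and *Prdm1* 0.02 and 0.21, and that in *Nr2e3* turned to -0.03. Of 15 tested photoreceptor transcription factors, 14 lay above and 1 below 0, with a median of 0.18 against -0.00 for all genes and 0.02 without the 3 sub-clusters, and 3 were higher in both retinas labelled knockout.

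Cone and rod genes were counted as lists. All 13 tested cone genes lay above 0 between knockout and heterozygous retinas, with a median log2 difference of 0.48 (0.21 without the 3 sub-clusters). However, *Gngt2* alone passed, against 0.0592% of all genes tested. In the list 1 gene was higher in both retinas labelled knockout than in the other 3, as were 10.4% of all genes. Summed over the list, cone RNA stood at 2817.5 CPM in the wild type, at 2299.4 and 2567.9 CPM in heterozygous 1 and 2, and at 3293.3 and 4480.2 CPM in knockout 1 and 2, with *Gngt2* as its most abundant gene. Without *Gngt2* the list summed to 1258.3, 937 and 1155.9 CPM and, in knockout 1 and 2, to 1099.7 and 1589.6 CPM, where the groups overlapped. Of 12 tested rod genes 5 lay above and 7 below 0, with a median of -0.22 (-0.29 without the 3 sub-clusters), and 0 passed. Rod RNA summed to 2089.7, 2794.1, 2854.7, 2340.6 and 2783.9 CPM in the same order of retinas, where the groups overlapped. In the rod list *Pde6g* differed by -0.42 (edgeR SE 0.11, adjusted p = 0.406), *Gngt1* by -0.42 and *Sag* by -0.39. Without the 3 sub-clusters these differences were -0.76, -0.71 and -0.57, and none of them passed (edgeR adjusted p from 0.106 to 0.678).

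Lists of later photoreceptor functions held no called gene between knockout and heterozygous retinas by edgeR. Of 13 outer segment and cilium genes 8 lay above and 5 below 0 (median 0.09), with *Rp1*, the axoneme protein, at 243.6 and 246.7 CPM against 212.7 and 202.9 CPM and 186.4 CPM in the wild type. In this list 4 genes were higher and 1 lower in both retinas labelled knockout than in the other 3, as were 10.4% and 11.5% of all genes. Of 11 tested genes of the photoreceptor synapse 10 lay above 0 (median 0.26), with 5 higher in both retinas labelled knockout than in the other 3 (10.4% of all genes were), among them the ribbon protein gene *Ctbp2* at 158.3 and 188.2 CPM against 141.9 to 148.2 CPM. Both medians moved without the 3 sub-clusters, to -0.14 and 0.02. Of 16 glycolysis genes 4 lay above and 12 below 0 (median -0.23), of 8 tested immediate early and heat shock genes 1 above and 7 below (median -0.36, and -0.03 without the 3 sub-clusters), and of 13 tested neurogenic progenitor markers 8 above and 5 below (median 0.17).

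Genes of dividing cells were counted in the same way. All 16 cell cycle genes lay below 0 between knockout and heterozygous retinas, with a median of -0.64 (-0.15 without the 3 sub-clusters), and 5 were lower in both retinas labelled knockout than in the other 3 (11.5% of all genes were). None passed by edgeR, none was at 0 in photoreceptors, and *Hmgb2* was the most abundant. From the wild type through heterozygous 1 and 2 to knockout 1 and 2 the list summed to 1837.5, 2743.1, 2100.9, 1975.6 and 1402.1 CPM, against 8347.5 CPM in primary progenitors. Of 12 primary progenitor markers 10 lay below 0 (median -0.42, and 0.08 without the 3 sub-clusters), 7 were lower in both retinas labelled knockout, and *Hes1* alone passed. They summed to 2543.4, 3217.0, 2799.5, 2293.2 and 2023.7 CPM, against 9159.3 CPM in primary progenitors, with *Ccnd1* the most abundant and none at 0. Of 9 tested amacrine markers 8 lay below 0 (median -0.38, and -0.06 without the 3 sub-clusters). They summed to 731.3, 895.4, 914.7, 820 and 926 CPM, with *Meis2* the most abundant and none at 0, against 5240.0 CPM in amacrine cells. Markers of microglia, blood and lens summed to at most 3.96 CPM in any retina, and 4 of 6 microglia markers were at 0. The part of these cells in *Hes1*, *Ptn* and *Crym* is given by the values without them above, and what the cells are was not tested.

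Restricted to the 290 rod-like cells, 6 genes passed between knockout and heterozygous retinas by edgeR. Besides *Gm8797*, *Gngt2* and *Dusp26* (1.28, adjusted p = 0.0257), these were *Apoe*, the lipid carrier apolipoprotein E, *Pde6g*, and *Rem2*, a small GTPase. *Pde6g*, the inhibitory subunit of rod phosphodiesterase, stood at 674.1 and 736.7 CPM in the retinas labelled knockout against 1334 and 1148 CPM in heterozygous ones and 818.7 CPM in the wild type (edgeR log2 fold change -0.82, adjusted p = 0.0257). *Apoe* stood at 239.5 and 512.7 CPM against 112.5 and 201.2 CPM, with 229.9 CPM in the wild type (edgeR log2 fold change 1.28, adjusted p = 0.0179). These fits rest on 178322 to 293213 UMIs per retina.

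Between knockout and wild-type retinas 1 gene passed (0.00987%), *Gm8797*, which fell by 3.58 (edgeR SE 0.39, adjusted p = 0.00734). DESeq2 called 1 gene as well, and 465 had an unadjusted edgeR p under 0.05. The largest changes that did not pass were *Zmat5* at 1.43 and *Mettl23* at 1.16 upward and *Rpl29*, a ribosomal protein gene, at -1.58 and the histone gene *Hist1h4d* at -1.48 downward. *Hist1h4d* stood at 13.0 CPM in knockout 2 but at 131.8 CPM in knockout 1, within the 107.8 to 188.5 CPM of the other 3 retinas, and its difference was -0.51 without knockout 2 and -3.87 without knockout 1. *Mettl23* came nearest to the threshold, at 142.2 and 137.8 CPM against 62.4 CPM in the wild-type retina, with the heterozygous retinas between them at 99.4 and 93.0 CPM (edgeR adjusted p = 0.0675). *Rpl29* stood at 1566.1 CPM in the wild type, at 889.5 and 894.0 CPM in heterozygous 1 and 2, and at 237.9 and 811.4 CPM in knockout 1 and 2, with knockout 1 far below knockout 2, and its difference was -0.97 without knockout 1 and -2.71 without knockout 2. With a term for sex in the fit, which left 1 residual degree of freedom, edgeR called 14 genes, among them *Mettl23* (1.15, adjusted p = 0.00754), *Rpl29* (-2.12, adjusted p = 3.72e-07), *Gngt2* and *Cnga1*. Of the tested rod genes 10 lay above and 2 below 0 (median 0.31), and of the cone genes 9 above and 4 below (median 0.13, which turned to -0.06 without the 3 sub-clusters). This comparison and the next rest on 1 wild-type retina, and the 3 comparisons share their samples.

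Between heterozygous and wild-type retinas 2 genes passed (0.0197%), both higher in the heterozygous retinas. *Cnga1*, which led the rod-like sub-cluster, stood at 32.7 and 43.6 CPM against 2.06 CPM in the wild-type retina (edgeR log2 fold change 4.14, SE 0.52, adjusted p = 0.0305), and at 19.9 and 25.96 CPM in the retinas labelled knockout. In rod-like cells alone it stood at 11.2 CPM in the wild type, 146.7 and 252.4 CPM in heterozygous and 105.8 and 164.3 CPM in knockout retinas (heterozygous against wild type, edgeR adjusted p = 0.000605). The other rod channel gene, *Cngb1*, was also lowest in the wild type, by less, at 25.4 CPM against 31.7 to 40.4 CPM in the other 4 retinas. *Eif3j2*, a translation initiation factor gene with a close paralog, stood at 37.6 and 35.1 CPM against 4.80 CPM (edgeR log2 fold change 2.88, SE 0.39, adjusted p = 0.0356). Neither *Cnga1* nor *Eif3j2* passed by edgeR without the 3 sub-clusters of high UMIs, where the log2 fold changes were 4.59 and 2.53. In the comparison of all photoreceptors the other methods gave fewer calls. DESeq2 called 0 genes here, with 69 at an unadjusted p under 0.05 against 590 by edgeR, and without heterozygous retina 2 edgeR called 0.

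Rod genes as a list lay above 0 in this comparison for 11 of 12 tested (median log2 0.46) and cone genes below 0 for 11 of 13 (median -0.33). Without the 3 sub-clusters these medians were 0.66 and -0.17. Of 16 glycolysis genes 15 lay above 0 (median 0.51, and 0.28 without the 3 sub-clusters), with *Gapdh* at 1280.3 and 921.6 CPM against 760.8 CPM, and none passed by edgeR.

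The knockout effect in photoreceptors was then set against that in all other P0 cells of the same retinas, with the retina as a block. Of 13249 genes 38 differed (0.287%) by edgeR, 19 with a more positive and 19 with a more negative difference in photoreceptors. *Gngt2* was among the former at 1.04 (log2, edgeR SE 0.14, adjusted p = 2.59e-05), since the other cells held 26.4 to 34.0 CPM in all 5 retinas, and it was 0.69 without knockout retina 2 (edgeR adjusted p = 9.17e-06). Against neurogenic progenitors alone it was 1.02 and did not pass (edgeR adjusted p = 0.437). *Fabp7* differed by 0.84 (edgeR SE 0.11, adjusted p = 2.34e-05) although its values in photoreceptors overlapped, at 3654.5 and 3857.1 CPM in knockout against 2989.0 and 4021.2 CPM in heterozygous retinas, while the other cells stood at 82.1 and 66.9 against 89.0 and 162.2 CPM. On the negative side were *Hes1*, *Hes5* and *Ccnd1*, each of which lost its call without 1 of the heterozygous retinas (edgeR adjusted p of up to 0.0530, 0.162 and 0.642), progenitor genes whose levels were lower in the summed photoreceptors of the retinas labelled knockout. Without the 3 sub-clusters 17 genes differed, 12 of them among the 38, and *Gngt2* (0.78, edgeR adjusted p = 4.44e-05) and *Fabp7* (0.66) were among these, whereas *Hes1*, *Hes5* and *Ccnd1* were not. Of 16 tested photoreceptor transcription factors all lay above 0 in this test (median 0.38, and 0.26 without the 3 sub-clusters) and *Neurod1* passed. Its difference was 0.37 (edgeR SE 0.08, adjusted p = 0.0381), and it was 0.12 without the 3 sub-clusters (edgeR adjusted p = 1). Some of these factors were scarce in the other cells, such as *Nrl* at 6.50 to 12.0 CPM and *Crx* at 8.88 to 11.2 CPM. The signs of such factors rest in part on few counts there. Within photoreceptors the median of this list between knockout and heterozygous retinas was 0.18, and 0.02 without the 3 sub-clusters. All 14 tested cone genes lay above 0 (median 1.12, and 1.03 without the 3 sub-clusters), and *Gngt2*, *Gnb3* and *Opn1sw* passed. In sum the cone list stood at 46.7 to 147.2 CPM in the other annotated types, against 2299.4 CPM or more in photoreceptors. These signs thus rest in part on few counts in the other cells, and cannot tell a change in photoreceptors from one in those counts. Within photoreceptors the median between knockout and heterozygous retinas was 0.48 (0.21 without the 3 sub-clusters). The call of *Gnb3* (0.82) was lost without the 3 sub-clusters, without heterozygous 1 and without knockout 2 (edgeR adjusted p of up to 0.554), and against neurogenic progenitors its difference was 0.22 (edgeR adjusted p = 0.928). *Opn1sw* differed by 1.90 (edgeR SE 0.43, adjusted p = 0.0335), with at most 3.05 CPM in the other cells of any retina, and by 1.31 without the 3 sub-clusters (edgeR adjusted p = 0.517). The few counts in the other cells enter this value. Within photoreceptors the difference in *Opn1sw* between knockout and heterozygous retinas was 1.04 and did not pass (edgeR adjusted p = 0.0797). The calls of *Neurod1* and *Opn1sw* were also lost without heterozygous 2 or knockout 2, and that of *Neurod1* without heterozygous 1, with adjusted p by edgeR of up to 0.454 for *Neurod1* and 0.507 for *Opn1sw*.

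How far the P0 cells had matured was shown by setting them beside the rods and cones of the P14 library, in levels only. Age and library changed together and cannot be told apart. *Sag*, the rod arrestin, averaged 2060.8 CPM in P0 rod-like cells (1420.6 to 2673.5 CPM over 5 retinas) and 11611 CPM in 2271 P14 rods (10318 to 12710 CPM). *Gnat1*, the rod transducin alpha subunit, averaged 1.80 and 4218.4 CPM. Of 16 rod genes 8 were more than 10 times and 5 from 2 to 10 times higher in P14 rods, and 3 lay within a factor of 2. Those 3 were the regulators *Nrl*, at 1237.7 CPM at P0 and 1896.6 CPM at P14, *Nr2e3*, at 2514.5 and 2240.9 CPM, and Samd7, at 279 and 333.5 CPM. Esrrb, an orphan nuclear receptor on the same list, had no UMI in P0 photoreceptors and averaged 126.3 CPM in P14 rods. Phosducin was likewise near its P14 level, at 5631.2 and 7677.9 CPM. *Rcvrn*, first in the list of genes particular to P0 photoreceptors, stood at 39.1 CPM in rod-like cells and 6472.5 CPM in P14 rods.

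The 5 precursor markers did not move together. *Otx2* stood at 909.9 CPM in P0 rod-like cells and 216.4 CPM in P14 rods, *Prdm1* at 351 and 30.8 CPM, and *Neurod1* at 4001.0 and 1903.9 CPM. *Crx*, at 458.9 and 625.2 CPM, was like *Nrl* higher at P14. Of 17 photoreceptor transcription factors 8 lay within a factor of 2, 6 were lower in P14 rods by more than that and 3 were higher by more than that. Some cone genes were lower in rods at P14. *Gngt2* stood at 3482.7 CPM (2684.5 to 4977.7 CPM) in P0 rod-like cells and at 19.2 CPM (13.3 to 25.3 CPM) in P14 rods, and *Rxrg* at 84.9 and 0.662 CPM.

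Cone genes were compared in the same way between P0 cone-like cells and P14 cones. *Gngt2* stood at 4715.2 CPM at P0 and 4567.2 CPM in 115 P14 cones, *Thrb* at 544.8 and 492.2 CPM, and *Gnb3*, the cone transducin beta subunit, at 1696.2 and 2315.9 CPM. *Opn1sw* stood at 1254.1 and 4078.5 CPM and *Gnat2* at 484 and 1585.4 CPM. *Arr3*, the cone arrestin, was still low at 17.0 CPM against 1732.6 CPM. Of 14 cone genes 2 were more than 10 times and 5 from 2 to 10 times higher in P14 cones, 5 lay within a factor of 2 and 2 were lower by more than that, namely *Rxrg* (191.7 and 34.97 CPM) and *Sall3* (163.9 and 67.2 CPM).

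**Figure D5:**
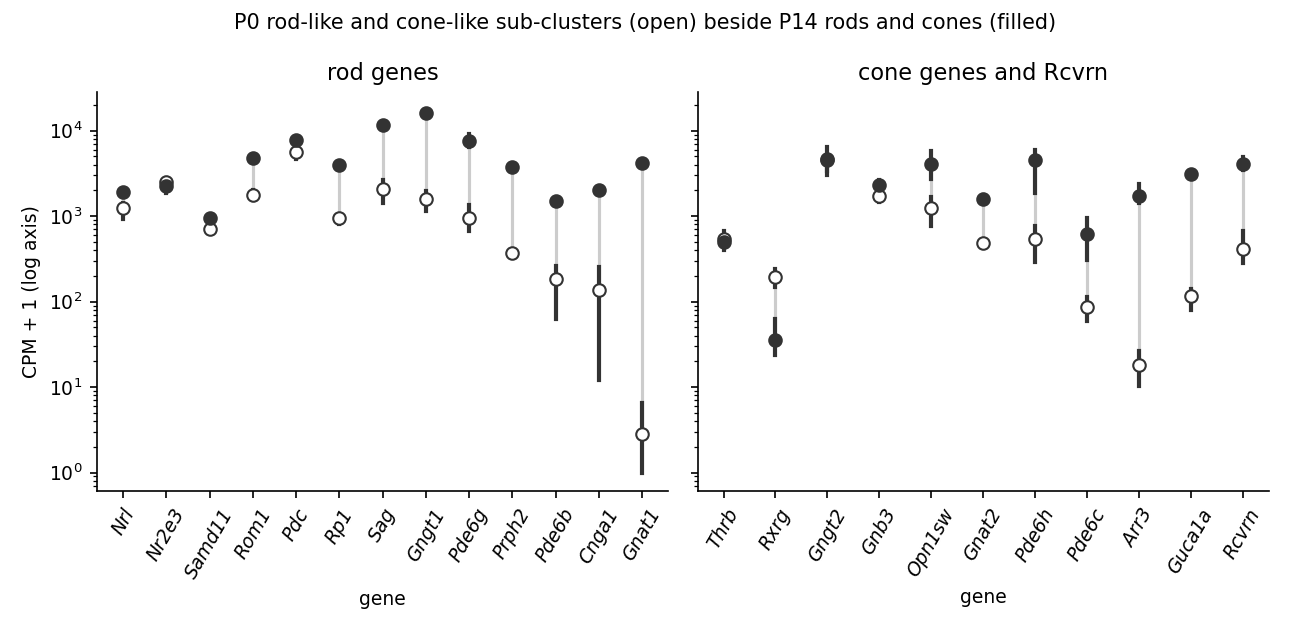
Mean CPM of 5 retinas on a log axis plus 1, in P0 rod-like (left) or cone-like cells (right) as open points and in P14 rods or cones as filled points, with bars from the lowest to the highest retina. *Gnat1* and *Arr3* were far lower at P0, and *Nrl*, *Nr2e3*, *Thrb* and *Gngt2* lay close to each other at both ages in their own cell type.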

How the data were processed

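The submitters' processing notes name Cell Ranger 3.1.0, Seurat 3 and the mm10 build. The authors assigned cells to retinas with deMULTIplex. The deposited counts are raw UMI counts per gene and cell (17851 genes), without normalization. The deposited SCT layer (natural log of the depth-corrected UMI count after adding 1, from the authors' SCTransform run) served 1 alternative only. Filters on cells were not given in the sources used here, and 0 columns of other samples were left out. Cell types and genotypes were the authors' annotation. The cells, the 27 gene lists and the tests were chosen with earlier results of these data known.

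Photoreceptor counts were summed per retina and fitted with edgeR 4.0.16 in R 4.3.3 (quasi-likelihood, TMM, its filter on low counts, threshold 0.05, 2 residual degrees of freedom). Shares of cells were compared by two-sided exact permutation over retinas. Sub-clusters came from scanpy 1.11.5 (Leiden resolution 0.5, 2000 variable genes, 30 components, 20 neighbours). Cells were thinned to 3000 UMIs for shares of cells with a UMI. Named genes were the 20 with the largest ratio to any other P0 type at 50 CPM or more, up to 10 called genes per direction, the 5 largest rises and falls at 50 CPM or more whose groups did not overlap, list members, sex genes and the 10 leading genes of each sub-cluster; *Abi3*, *Rem2* and *Ccdc175* lie outside this rule and were picked with their values in view. Symbols were placed on GRCm38 with GENCODE M21 (17594 matched). On simulated data for knockout against heterozygous retinas, edgeR recovered 97% of 200 genes changed 2-fold among 9848 genes, with 10 false calls. The changed genes were drawn from those at 50 CPM or more. Each gene was given the spread fitted to its level rather than its own, so this share does not measure power for the real genes. DESeq2 1.42.0, limma 3.58.1, other filters, a sex term and each retina left out were alternatives, and the fits without the 3 sub-clusters of high UMIs or on rod-like cells alone were added after the data were seen. The intervals and p-values cover counting error or the spread of these samples only. 1 gene is not reported here.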

Additional observations from a re-analysis of the deposited data

Results flagged for a closer look

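The knockout effect, taken as retinas labelled knockout minus heterozygous, differed between photoreceptors and all other P0 cells of the same retinas for 38 genes by an edgeR test of the difference itself with the retina as a block. These 38 were 0.287% of the genes tested, and 17 genes differed when the 3 sub-clusters of high UMIs were left out, 12 of them among the 38. The values below are differences on the log2 scale, for the 10 genes with the smallest adjusted p in each direction.

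In the positive direction, that is with a larger difference in photoreceptors than in the other cells, *Gngt2* differed by 1.04, *Fabp7* by 0.84, *Dusp26* by 1.26, *Apoe* by 0.61 and *Epb41l2* by 0.64, and all 5 also differed without the 3 sub-clusters. *Gnb3*, the cone transducin beta subunit, differed by 0.82, *Pdc* by 0.64 and the noncoding RNA *Platr17* by 1.40, and these 3 did not pass without the 3 sub-clusters, where their differences were 0.49, 0.37 and 1.18 (edgeR adjusted p = 0.554, 0.723 and 0.0798). For *Pdc* the photoreceptor values overlapped, at 1199.2 and 1602.6 CPM in the retinas labelled knockout against 1185.3 and 1724.8 CPM in heterozygous ones, while the other cells stood at 21.6 and 20.2 CPM against 24.3 and 43.5 CPM. For *Gnb3* they overlapped too, at 506.2 and 614.5 CPM against 521.9 and 558.8 CPM, while the other cells stood at 10.2 and 9.11 CPM against 16.3 and 15.9 CPM. *Platr17* stood at 205.7 and 212.8 CPM against 177.1 and 170.0 CPM in photoreceptors, and at 2.06 and 2.49 CPM against 5.13 and 4.74 CPM in the other cells. All 3 genes were far scarcer in the other cells than in photoreceptors, and low counts there enter these differences. *Gm10457* (4.61) and *Dqx1* (2.33) were scarce, with at most 11.5 and 58.4 CPM in photoreceptors of any retina.

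In the negative direction were the Notch effectors *Hes1* (-0.69) and *Hes5* (-0.53), the cell cycle genes *Ccnd1* (-0.46) and *Pclaf* (-0.93), and *Ptn* (-0.89), *Crym* (-0.81), *Dbi* (-0.60) and *Sox11* (-0.66). *H19* (-2.51) and *Adam23* (-3.33) were below 20 CPM in photoreceptors of every retina. None of these 10 differed without the 3 sub-clusters (edgeR adjusted p = 1 for each). There 6 of them changed sign, while *Pclaf* had -0.87, *Ptn* -0.59, *Sox11* -0.20 and *Adam23* -6.06.

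With 1 retina left out at a time, 3 of these 20 genes, *Fabp7*, *Gngt2* and *Ptn*, kept their call in every case, and 17 lost it at least once. Without heterozygous retina 1 the calls of *Apoe*, *Gnb3*, *Platr17*, *Pclaf*, *Crym*, *Hes1*, *Dbi*, *Ccnd1* and *H19* were lost, and without heterozygous retina 2 those of *Dqx1*, *Pdc* and *Hes5*. Without knockout retina 1 those of *Epb41l2*, *Platr17* and *Sox11* were lost, and without knockout retina 2 those of *Dusp26*, *Gm10457*, *Gnb3*, *Pdc*, *H19* and *Adam23*. The highest adjusted p by edgeR was 0.642, for *Ccnd1*. The difference moved by more than 1.5 times to 0.69 for *Gngt2*, 0.81 for *Dusp26* and 0.37 for *Pdc* without knockout 2, to 1.32 for *Dqx1* without heterozygous 2, to -0.60 for *Pclaf* without heterozygous 1 and for *Sox11* to -0.40 without knockout 1 and -1.02 without knockout 2. Against neurogenic progenitors alone 2 of the 20 passed, *Pclaf* (-1.27, edgeR adjusted p = 0.000849) and *Hes5* (-0.64, edgeR adjusted p = 0.0482), while *Apoe* differed by 0.23 (edgeR adjusted p = 0.897) and *Dusp26* by 0.00 (edgeR adjusted p = 1).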

How the results depend on the processing

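With 2 residual degrees of freedom and 1 wild-type retina, the counts of called genes depended on the settings. Log2 differences were followed through the alternatives only for the named called genes and for the largest rises and falls. Of these differences, 452 kept their direction and side of the threshold, 9 changed sign, 68 were no longer and 90 newly past it. Genes named only as list members were not in this tally. Some of them turned between knockout and heterozygous retinas without the 3 sub-clusters of high UMIs, among them *Crx*, *Nr2e3*, *Gnat2* and *Rcvrn*. Between knockout and heterozygous retinas edgeR called 120 genes without the filter on low counts, 36 with a sex term, 11 without the 5% of photoreceptors with the most UMIs, 3 in the 63 cells with no UMI of another cell type's markers, 1 without the 3 sub-clusters of high UMIs, and from 5 to 88 with 1 retina left out; DESeq2 called 7. Between knockout and wild type the counts were 34, 14, 3 in rod-like cells alone, 2 against the mean of wild type and heterozygous, 6 by limma on SCT values, and from 1 to 27 with 1 retina left out. Between heterozygous and wild type they were 76 without the filter, 11 with a sex term, 5 by limma, 0 by DESeq2, 0 without the top 5%, 0 without the 3 sub-clusters, and from 0 to 22 with 1 retina left out. The test of photoreceptors against other cells gave 69 without the filter, 4 with neurogenic progenitors as the reference, 17 without the 3 sub-clusters, and from 30 to 96 with 1 retina left out. The cause of these moves was not tested.

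Without the 3 sub-clusters *Crym* turned to 0.48 between knockout and heterozygous retinas, and in the test against other cells *Crym* turned to 0.76, *Hes1* to 0.21, *Dbi* to 0.33, *Ccnd1* to 0.40, *H19* to 5.19 and *Hes5* to 0.27. Between heterozygous and wild type *Opn1sw* turned to 1.08 in the 63 cells and *Atoh7* to 0.17 in rod-like cells. The difference in the share of rod-like cells, -0.141 points, turned to 5.03 at resolution 0.3, 2.89 with 3000 variable genes and 0.0383 without the top 5%, and ranged from -1.67 to 0.858 with 1 retina left out. That of the *Atoh7* sub-cluster ranged from -0.770 to 6.10. At resolution 0.3 the rod-like and *Insm2* cells fell into 1 cluster. Of the 270 *Insm2* cells, 128 stayed in the best matching cluster with 3000 variable genes and 139 without the top 5%. The shares with a rod or cone UMI kept their direction under every alternative run, and none reached p below 0.1. The retinas could not be paired by replicate number, because they carry barcode numbers that no 2 genotypes share. The sex term matches the heterozygous and knockout pairs by sex, which is not a replicate number, and its counts are given above.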

Other observations

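Among 170 tested genes within 10 Mb of *Sstr2* on chromosome 11, edgeR called 0 in each genotype comparison, with 11, 12 and 15 at an unadjusted p under 0.05 for knockout against heterozygous, knockout against wild type and heterozygous against wild type (6.47%, 7.06% and 8.82%). On other chromosomes these shares were 6.88%, 4.44% and 5.74%. *Cwc22*, a splicing factor gene, stood at 377.5, 436.7 and 373.6 CPM in heterozygous 1, heterozygous 2 and knockout 2, and at 89.1 and 87.2 CPM in the wild-type retina and knockout 1. In rod-like cells alone *Ccdc175* stood at 140.2 CPM in the wild-type retina against 30.7 and 25.6 CPM in heterozygous and 83.6 and 79.6 CPM in knockout retinas, on 72 UMIs in all.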
